A study of Mus musculus with 22 samples.

Results

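The first maturation step of bone marrow eosinophils, from stage I to stage II, was examined in mice whose interleukin-5 (IL-5) was not neutralised. The comparison used 5 of the 22 RNA-seq libraries of the study: the 2 stage II libraries and the 3 stage I libraries of mice given IL-33 and an isotype control antibody, chosen by their titles. The study sorted 4 maturation stages of eosinophils from the marrow of C57BL6 wild-type mice with IL-33 induced eosinophilia, with anti-IL5 or isotype antibody, to ask what neutralising IL-5 does to each stage. Mice of both arms were injected intraperitoneally with 400 ng recombinant IL-33 daily for 7 days. They also had 400 µg of antibody on 3 successive days, from the day of the last IL-33 dose. None of the 22 libraries came from mice without IL-33, so the isotype arm is a step under IL-33 with IL-5 present, not a step in the resting marrow. Marrow was first depleted of cells bearing Ly6G, CD90.2, NK1.1 or CD45R. Sorting of the stages used antibodies to PIR-A/B, CD200R3, CD117, CD55, Siglec-F, F4/80 and CD29, and reached a purity of at least 95%. The labels give neither the gate of each stage nor whether mice were pooled or equal replicate numbers mark 1 animal. The p-values therefore measure the spread between these samples, which may be technical. In sorted bulk samples, fewer cells of a type and less RNA per cell cannot be told apart.

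Eosinophils arise in the marrow from myeloid progenitors under GATA-1, PU.1 and C/EBP factors, and IL-5 is the main cytokine for the growth and survival of the committed cells. IL-33, an alarmin that signals through the receptor ST2 encoded by Il1rl1, raises eosinophil numbers partly through IL-5. During maturation the cells first make and store granule proteins (major basic protein, eosinophil peroxidase and eosinophil-associated ribonucleases), then leave the cell cycle and acquire the adhesion molecules, chemokine receptors and inhibitory receptors of the circulating cell.

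The libraries held 7161264 to 10960321 gene counts and 12845 to 13829 genes seen, and the 10 most abundant genes took 7.23% to 9.48% of the counts. Levels are given as CPM, counts scaled to each library's normalised size. They are not per gene length, so a level may be compared between libraries but not between genes. The defining markers of eosinophils were present in all 5 libraries: Epx (eosinophil peroxidase) lay between 18320 and 24370 CPM, Prg2 (major basic protein) between 14130 and 24830 CPM, Il5ra (the IL-5 receptor chain) between 197 and 252 CPM and Siglecf between 291 and 366 CPM. The 2 stage II libraries were less alike than those of stage I. Across the 12387 genes tested, which are not independent replicates, log2 CPM of the stage I libraries correlated with each other at r = 0.978 to 0.980, against 0.956 for the 2 stage II libraries. Where a single library is meant below, I-1, I-2 and I-3 stand for the stage I libraries by number, and II-1 and II-2 for those of stage II. Stage II library 1 lay farther from stage I (0.934 to 0.939) than stage II library 2 did (0.951 to 0.957). Of 916 genes called higher at stage II, 692 (75.5%) were higher in library 1 than in library 2, whereas 48.5% of all genes tested were, and counts of calls are therefore given with and without library 1.

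From stage I to stage II under isotype antibody, 16 of 37 receptor and effector genes of the mature eosinophil were called higher and 0 lower. Falls were called in 3 of 8 genes on a list built around neutrophil-type primary granules (Mpo, Ctsg and the progenitor gene Ms4a3). They were also called in 5 of 25 stem and progenitor genes, 20 of 50 genes of ribosome biogenesis and 15 of 50 of the secretory pathway. These lists had 0 rises. Of 7 tested genes of the eosinophil's own granule proteins 0 were called in either direction. With edgeR's quasi-likelihood test at a Benjamini-Hochberg adjusted p under 0.05, 916 of 12387 genes (7.39%) were called higher and 403 (3.25%) lower. Changes of more than 2-fold made up 436 of the rises and 203 of the falls, and changes of more than 4-fold 135 and 74. The median log2 fold change of all genes was 0.02, or -0.03 with the other scaling tried. The counts were 321 higher and 65 lower (386 in all) without stage II library 1, and without stage I library 2 or 3 the total was 775 or 845. A fit of these 5 libraries alone called 355 higher and 332 lower, and DESeq2 984 and 731, so the balance between rises and falls depended on the fit. The plot of all genes tested shows the steps of the genes named below against their level.

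**Figure D1:**
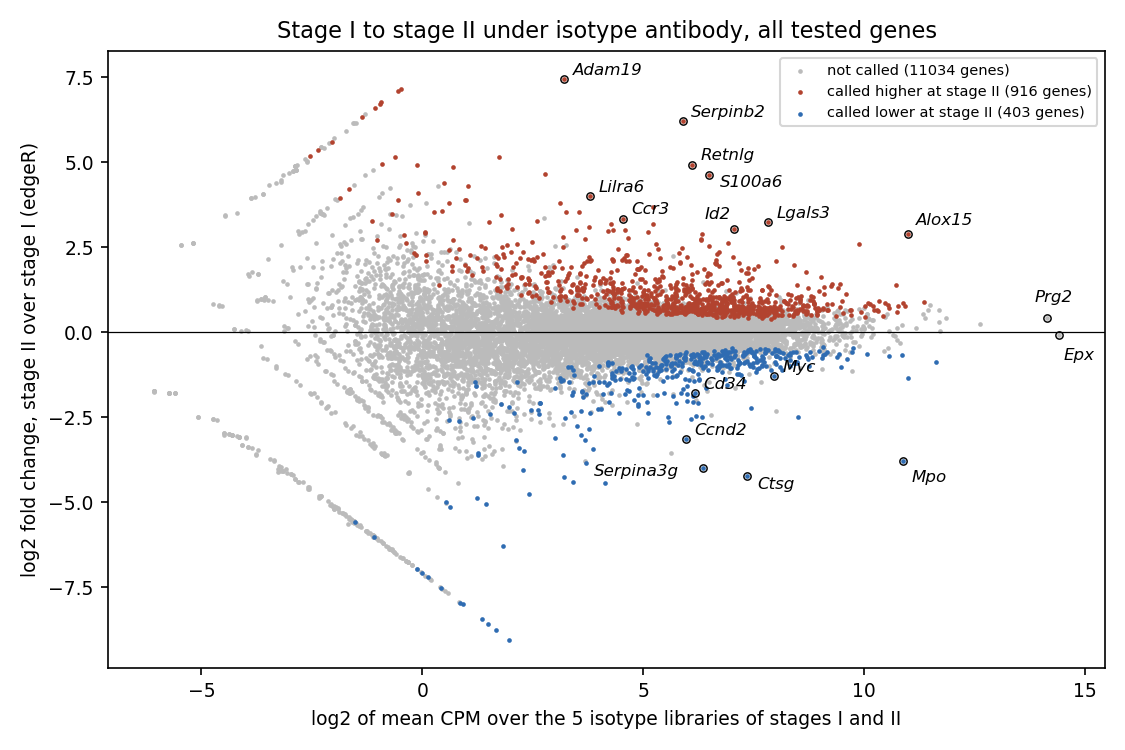
Log2 fold change of stage II over stage I (edgeR, y axis) against the log2 mean CPM of the 5 isotype libraries (x axis), 1 point per tested gene with a count in them; red, called higher (916); blue, called lower (403); grey, not called. Points on the slanting edges are genes with no count in 1 of the groups, and Epx and Prg2 lie close to 0 at the far right.

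The change with the smallest p of all genes was that of Id2, which encodes a partner that keeps helix-loop-helix transcription factors off DNA. It is named here for that p, after its values were seen. Id2 was measured at 38.8, 25.6 and 38.2 CPM at stage I and 314.9 and 245 CPM at stage II. Its log2 fold change was 3.03 ± 0.19 (approximate SE, derived from the test statistic) with an edgeR adjusted p = 2.92e-09. Both stage II libraries were thus more than 6-fold above every stage I library. Alox15, the 15-lipoxygenase that makes oxygenated lipid mediators in eosinophils, stood at 633, 539 and 530.4 CPM at stage I and 5199 and 3319 CPM at stage II (log2 fold change 2.91 ± 0.26, edgeR adjusted p = 3.42e-07). The groups did not overlap for either gene, as for 2419 genes (19.5%) with stage II above stage I and 2431 (19.6%) with stage II below.

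The 14 largest rises spanned log2 fold changes of 3.20 to 7.46. They were taken among genes whose higher group averaged 10 CPM or more and whose groups did not overlap. Adam19, a membrane metalloprotease, went from 0.074, 0 and 0.283 CPM to 23.3 and 22.9 CPM, which makes the size of its log2 fold change (7.46 ± 0.57) uncertain although the groups were far apart. Serpinb2, which encodes plasminogen activator inhibitor type 2, was at 1.92, 2.71 and 1.23 CPM at stage I and 216 and 75.6 CPM at stage II (log2 fold change 6.22 ± 0.45). Retnlg, a resistin-like secreted protein of granulocytes, was at 4.44, 6.56 and 5.28 CPM at stage I and 250.2 and 80.6 CPM at stage II (4.94 ± 0.37). The calcium-binding protein gene S100a6 was at 6.51, 7.29 and 12 CPM at stage I and 252 and 173 CPM at stage II (4.63 ± 0.33). In all 4 genes both stage II libraries were above every stage I library, as the rule of choice required. Il1rn, the secreted antagonist of the interleukin-1 receptor, was uneven at stage II: 0.887, 0.52 and 0.377 CPM at stage I and 27 and 5.32 CPM at stage II (4.66 ± 0.67). Lgals3, encoding the lectin galectin-3, was high already at stage I, at 54.7, 44.8 and 54.3 CPM at stage I and 729 and 251 CPM at stage II (3.25 ± 0.33). The other 8 were the receptors Lilra6, Cd200r4 and Ccr3, described below, Ifitm6 (3.69 ± 0.35), the membrane metalloprotease gene Mmp25 (3.55 ± 0.36), Gsap (3.54 ± 0.30), Rap1gap2 (3.29 ± 0.63) and the Src-family kinase gene Fgr (3.20 ± 0.34). For all 14 the edgeR adjusted p lay between 1.78e-08 and 0.00219. Each of these calls held in all 5 leave-one-out fits. At least 1 of the 7 other fits ended the call of Rap1gap2 (adjusted p of 0.0653).

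The 14 largest falls, by the same rule on level and overlap, spanned log2 fold changes of -2.85 to -4.44 and rested on wider errors than the rises. Ctsg, the primary granule protease cathepsin G, was at 202, 239.7 and 346 CPM at stage I and 14.6 and 13.1 CPM at stage II (log2 fold change -4.24 ± 0.88, edgeR adjusted p = 0.00528). Mpo, the myeloperoxidase of the same granules, was the most abundant of the 14, at 2525, 2651 and 3857 CPM at stage I and 232 and 201 CPM at stage II (-3.80 ± 1.07, edgeR adjusted p = 0.0331). Ccnd2, which encodes cyclin D2, was at 98.9, 86.4 and 104 CPM at stage I and 10.5 and 11.4 CPM at stage II (-3.13 ± 0.56, edgeR adjusted p = 0.00101). Stage II lay below every stage I library in all 3, as the rule required, and the 2 stage II libraries were close together. The serine protease inhibitor gene Serpina3g was at 149.98, 95.2 and 145 CPM at stage I and 7.12 and 9.28 CPM at stage II (-3.98 ± 0.74). Less abundant genes that fell were the leucine-rich repeat genes Lrrn3 (-4.44 ± 1.30) and Amigo2 (-4.41 ± 1.05), Bhlha15 (-4.27 ± 1.26), a transcription factor of secretory cells, and the small GTPase genes Rab38 (-3.84 ± 0.79) and Diras2 (-3.17 ± 0.73). The rest were Dmkn (-3.62 ± 0.94), the transporter gene Abca8b (-3.44 ± 0.66), Il12a, a subunit of interleukin-12 (-3.11 ± 0.86), the inhibitory receptor gene Cd72 (-3.01 ± 0.63) and the lectin gene Mgl2 (-2.85 ± 0.82). EdgeR adjusted p for the 14 lay between 0.00101 and 0.0379. Leaving out 1 library ended the calls of Ctsg, Serpina3g, Amigo2 and Diras2 (without II-1), Lrrn3 (without II-1, I-2 or I-3), Dmkn (without II-1, II-2 or I-3), Il12a (without II-1, II-2, I-1 or I-3), Mpo (without II-1, II-2, I-2 or I-3) and Bhlha15 and Mgl2 (without any 1 library), at edgeR adjusted p of 0.0581 to 0.234. The calls of Mpo, Lrrn3, Bhlha15 and Mgl2 also ended in 1 or more of the 7 other fits (adjusted p of 0.0518 to 0.235).

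The genes of the surface proteins used to sort the stages came next, and since those proteins chose the cells, their differences are not independent of the sort. Of 14 such genes listed, 9 passed the filter on low counts and 3 (33.3%) were called higher and 0 lower. Pirb, the inhibitory paired immunoglobulin-like receptor, was at 31.4, 16.7 and 25.4 CPM at stage I and 205 and 117 CPM at stage II (log2 fold change 2.71 ± 0.25, edgeR adjusted p = 3.72e-07). Its activating counterpart Pira2 was at 0.592, 0.208 and 0 CPM at stage I and 7.26 and 1.92 CPM at stage II (3.89 ± 0.65). Adgre1, which encodes F4/80, was at 179, 135 and 114 CPM at stage I and 369 and 211 CPM at stage II (1.02 ± 0.28). Stage II lay above stage I in all 3, with library 1 the higher of the 2. Kit, encoding CD117, the stem cell factor receptor, was at 102, 85.9 and 82 CPM at stage I and 16.2 and 55.7 CPM at stage II, and its log2 fold change of -1.32 ± 0.52 was not called (edgeR adjusted p = 0.114), the 2 stage II libraries being more than 3 times apart. Kit was called lower without II-2 (edgeR adjusted p = 0.0149), by DESeq2 (adjusted p = 0.0464) and by limma-voom (adjusted p = 0.0144). Itgb1 (CD29, -0.30 ± 0.21), Siglecf (0.15 ± 0.15) and Cd55 (-0.16 ± 0.23) were not called, nor were Pira6 (0.73 ± 1.01) and Cd200r3 (0.25 ± 1.20), which reached at most 1.09 and 0.849 CPM. The following calls ended when 1 library was left out, at edgeR adjusted p of 0.061 to 0.396: Pira2 (without II-1) and Adgre1 (without II-1, I-2 or I-3). Among the 7 other fits, 1 or more ended the call of Adgre1 (adjusted p of 0.0575 to 0.058).

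Paired immunoglobulin-like, Cd200r and Cd300 receptors, which set the threshold of myeloid activation through inhibitory or activating signalling motifs, were counted as a list of their own. Of 22 listed genes 20 were tested and 13 (65.0%) were called higher and 0 lower, against 7.39% and 3.25% of all genes tested. The list includes Pirb, Pira2 and Siglecf, whose proteins were used in the sort, so its share is not independent of the sort. Lilra6, whose promoter is a near-copy of those of Pirb and Pira2 (below), may not be independent of the PIR-A/B antibody either. Their median log2 fold change was 1.71, against 0.02 for all genes, and was the same with Cd300c, described below, at its lower bound. Lilra6 was at 2.44, 1.15 and 2.17 CPM at stage I and 43.9 and 20.3 CPM at stage II (4.02 ± 0.33, edgeR adjusted p = 1.03e-07). Cd200r4 was at 1.63, 1.35 and 1.13 CPM at stage I and 25.5 and 13.9 CPM at stage II (3.81 ± 0.44). Cd300lf, an inhibitory receptor that binds phospholipids, was at 34.6, 13 and 19.8 CPM at stage I and 232 and 104 CPM at stage II (2.89 ± 0.38). The inhibitory receptor gene Lilrb4a was at 53.2, 27.2 and 38.4 CPM at stage I and 238 and 171 CPM at stage II (2.36 ± 0.27). No stage II library overlapped stage I in these 4 genes (for Lilra6 and Cd200r4 a condition of their choice), and library 1 was again the higher. Cd300lb, Cd300ld, Cd300c2, Siglece and Sirpa, a receptor for CD47, also rose, by 0.91 to 2.30 on the log2 scale, as did Cd200r1 (1.19 ± 0.33). Cd300c, called higher too, had 0 counts at stage I and 9 at stage II (at least 6.27-fold higher, against a floor of 3 counts over the stage I group). Members not called included Siglecf, Siglecg, Cd300a and Clec12a (0.15 to 0.59), of which Siglecg was called higher without I-1 or II-2 (edgeR adjusted p = 0.0303 and 0.0265). The count was 6 of 20 without stage II library 1. Leave-one-out fits ended the calls of Cd300lb, Cd300ld, Cd300c2 and Siglece (without II-1), Cd200r1 (without II-1, I-1 or I-2) and Cd300c (without II-1, I-1, I-2 or I-3) (edgeR adjusted p of 0.0581 to 0.406). At least 1 of the 7 other fits also ended the calls of Cd300c2, Cd200r1 and Cd300c (adjusted p of 0.0567 to 0.0907).

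Promoters are shown for 3 of these receptors and 2 of the primary granule genes because the same short sequence occurs in receptor genes called higher and in primary granule genes. The sequence searched was GAGGAAGT, a form of the binding motif of PU.1, on both strands of the 250 bases before each transcription start (RefSeq promoters, GRCm38.p6). It occurred in 660 of 27025 promoters (2.44%), in 4 of the 10 receptor genes called higher that have a promoter in the table (Pirb, Pira2, Lilra6 and Cd300ld), and in 3 of 6 primary granule genes (Mpo, Elane and Prtn3). It was 1 of 5 motifs searched and is shown because it recurred in these genes, after the counts were seen, so its share there is a description. The others were AGATAA for GATA factors, TTGCNNAA for C/EBP, CACGTG for Myc and TTCNNNGAA for STAT, found in 10.3%, 9.55%, 6.05% and 7.18% of all promoters. Each of these 4 was in 0 or 1 of the 10 receptor genes, and STAT alone was in primary granule genes (2 of 6). C/EBP was in 3 of 6 eosinophil granule protein genes, all of them close copies. Matches to GAGGAAGT are in capitals. Pirb spans chr7:3720383-3720632 on the minus strand, Lilra6 chr7:3915502-3915751 on the minus strand, Cd300ld chr11:114989887-114990136 on the minus strand, Mpo chr11:87793534-87793783 on the plus strand and Prtn3 chr10:79879417-79879666 on the plus strand.
Pirb: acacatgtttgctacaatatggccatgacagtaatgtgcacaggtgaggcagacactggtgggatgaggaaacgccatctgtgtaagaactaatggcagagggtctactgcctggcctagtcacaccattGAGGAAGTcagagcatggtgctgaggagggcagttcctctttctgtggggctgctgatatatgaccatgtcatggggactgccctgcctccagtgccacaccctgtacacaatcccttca
Lilra6: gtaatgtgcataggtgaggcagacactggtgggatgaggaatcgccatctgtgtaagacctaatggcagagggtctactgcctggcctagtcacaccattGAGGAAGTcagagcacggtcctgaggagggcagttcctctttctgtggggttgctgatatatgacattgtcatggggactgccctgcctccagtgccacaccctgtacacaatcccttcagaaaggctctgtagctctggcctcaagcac
Cd300ld: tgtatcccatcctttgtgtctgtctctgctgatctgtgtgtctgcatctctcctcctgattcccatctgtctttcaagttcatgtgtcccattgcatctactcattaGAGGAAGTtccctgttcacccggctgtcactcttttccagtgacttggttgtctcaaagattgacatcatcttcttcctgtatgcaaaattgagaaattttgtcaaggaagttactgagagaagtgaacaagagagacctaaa
Mpo: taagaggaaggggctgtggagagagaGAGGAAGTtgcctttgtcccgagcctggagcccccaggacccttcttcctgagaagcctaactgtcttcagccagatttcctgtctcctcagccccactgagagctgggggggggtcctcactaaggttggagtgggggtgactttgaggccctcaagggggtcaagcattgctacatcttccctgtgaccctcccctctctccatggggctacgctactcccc
Prtn3: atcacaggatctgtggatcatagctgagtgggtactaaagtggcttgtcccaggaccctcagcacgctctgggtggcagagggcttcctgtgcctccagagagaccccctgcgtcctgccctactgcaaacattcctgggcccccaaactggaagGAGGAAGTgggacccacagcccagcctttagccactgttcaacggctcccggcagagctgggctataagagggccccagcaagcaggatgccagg
The 3 receptor genes of the chromosome 7 cluster are near-copies: the promoters of Pirb and Lilra6 were identical at 96.4% of 220 aligned bases, and those of Pirb and Pira2 at 97.7% of 222, so their matches count as 1 shared sequence and their reads may be split between copies. Among all genes with a promoter in the table, the sequence was found in 33 of 735 genes called higher (4.49%), 11 of 328 called lower (3.35%) and 264 of 9792 tested (2.70%). A match describes the letters alone, and no binding was measured. Spi1, which encodes PU.1, was itself called higher (Spi1: 357, 349 and 357 CPM at stage I and 803 and 458 CPM at stage II, log2 fold change 0.83 ± 0.21). Its call ended without II-1, at an edgeR adjusted p of 0.425. The call of Spi1 also ended in 1 or more of the 7 other fits (adjusted p of 0.0829).

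Among receptors and effectors of eosinophils, 16 of 37 tested genes (43.2%) were called higher and 0 lower, with a median log2 fold change of 0.85. Of the 37, 7 had a negative log2 fold change, 3 of them at an unadjusted edgeR p under 0.05, and DESeq2 called 1 lower. Ccr3, the eotaxin receptor that guides eosinophils to tissue, was at 6.8, 2.5 and 5.38 CPM at stage I and 70.6 and 31.2 CPM at stage II (log2 fold change 3.35 ± 0.44, edgeR adjusted p = 4.62e-05). Ccr1, a receptor for inflammatory chemokines, was at 54.9, 23.4 and 58 CPM at stage I and 246 and 123 CPM at stage II (2.02 ± 0.29). Both genes had no overlap between the groups (for Ccr3 a condition of its choice) and a stage II library 1 at about 2 times the level of library 2. Il4, a cytokine that eosinophils store, was at 35.9, 38.2 and 32.9 CPM at stage I and 102 and 67.7 CPM at stage II (1.25 ± 0.17, edgeR adjusted p = 5.18e-05). Il6 was at 8.5, 4.58 and 5.28 CPM at stage I and 27 and 14 CPM at stage II (1.73 ± 0.40). The immunoglobulin receptor signalling chain gene Fcer1g was at 456, 460.1 and 498 CPM at stage I and 1059 and 634 CPM at stage II (0.85 ± 0.20). The rest of the 16 included Alox15, Alox5, Il1rn, Cd300lf and Adgre1, the complement receptor gene C3ar1, and the adhesion and migration genes Itgam, Itgb7, Cd9 and Cxcr4. Receptors for the eosinophil's growth factors were not called, apart from Csf2ra without II-2 (edgeR adjusted p = 0.0247): the log2 fold change was -0.15 ± 0.21 for Il5ra, 0.48 ± 0.23 for Csf2ra, 0.30 ± 0.21 for the shared chain gene Csf2rb, -0.03 ± 0.26 for Il3ra and 0.02 ± 0.34 for Il1rl1. Il5ra was at 252, 236 and 244 CPM at stage I and 197 and 243 CPM at stage II, with overlapping groups. The number of rises was 10 of 37 without stage II library 1, and in the fit of the 5 libraries alone 11. Of these calls, those of Il6, Fcer1g and Alox5 (without II-1), Cd9 (without II-1 or I-2), C3ar1 (without II-2, I-1 or I-2), Adgre1 (without II-1, I-2 or I-3) and Cxcr4 (without any 1 library) ended at edgeR adjusted p of 0.0506 to 0.677. Among the 7 other fits, 1 or more ended the calls of Fcer1g, C3ar1, Adgre1, Cd9 and Cxcr4 (adjusted p of 0.0569 to 0.153).

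Adhesion molecules, chemokine receptors and migration genes gave 12 rises and 0 falls among 28 tested (42.9%). The integrin chains led: Itgb7, a partner of the α4 chain, was at 24.4, 14.1 and 33.4 CPM at stage I and 225 and 99.9 CPM at stage II (log2 fold change 2.76 ± 0.29). Itgb2 (CD18) averaged 284 ± 31.9 CPM (SD, n = 3) at stage I and was at 1011 and 749 CPM at stage II (1.63 ± 0.19). Itgam (CD11b) was at 129, 75 and 90.3 CPM at stage I and 233 and 357 CPM at stage II (1.59 ± 0.25). Itgb3 was at 5.4, 0.625 and 1.7 CPM at stage I and 14.6 and 23.3 CPM at stage II (2.80 ± 0.45). In these 4 integrin genes every stage II library was above every stage I library, and for Itgam and Itgb3 it was library 2 that was the higher. The edgeR adjusted p of the 4 ran from 2.07e-06 to 0.000437, and none lost its call in a leave-one-out fit. Itga4, the α4 chain gene, was at 53, 53.3 and 49.6 CPM at stage I and 26.7 and 36.6 CPM at stage II (-0.71 ± 0.25) and was not called, nor was Itga6 (-1.04 ± 0.36). DESeq2 called both lower (adjusted p = 0.0276 and 0.0243), the 2 falls it found in the list. Cxcr4, the receptor that retains cells in marrow, was at 27.8, 22.4 and 25.5 CPM at stage I and 53.3 and 64.2 CPM at stage II (1.22 ± 0.35, edgeR adjusted p = 0.0279). Cytoskeletal genes of moving leukocytes rose less than 2-fold: Vim (0.98 ± 0.22), Rac2 (0.78 ± 0.16) and Coro1a (0.81 ± 0.17). Of the 28 genes, 6 were called without stage II library 1. Leaving out 1 library ended the calls of Vim, Rac2 and Coro1a (without II-1), Cd9 (without II-1 or I-2) and Cxcr4 (without any 1 library), at edgeR adjusted p of 0.0573 to 0.677. At least 1 of the 7 other fits also ended the calls of Cxcr4, Rac2, Coro1a and Cd9 (adjusted p of 0.0569 to 0.104).

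**Figure D2:**
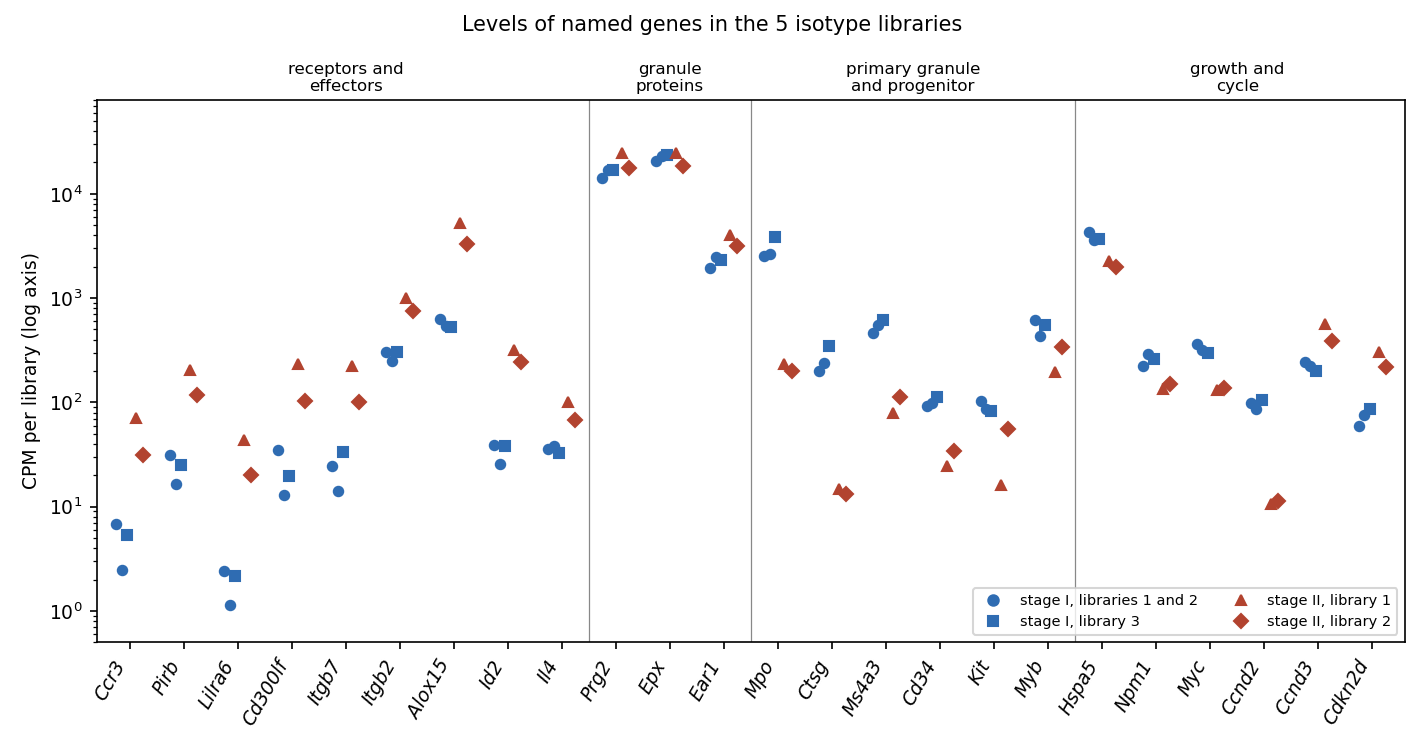
CPM (log axis) of 24 named genes in the 3 stage I libraries (blue; circles, libraries 1 and 2; square, library 3) and the 2 stage II libraries (red; triangle, library 1; diamond, library 2). Receptor and effector genes sit higher at stage II, the eosinophil granule protein genes overlap or nearly so, and primary granule and progenitor genes sit lower.

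Eosinophil granule protein genes were among the most abundant in all 5 libraries and none was called. Of 9 listed, 7 were tested, with log2 fold changes from -0.07 to 0.67 and a median of 0.41. Epx was at 20500, 23220 and 23580 CPM at stage I and 24370 and 18320 CPM at stage II (log2 fold change -0.07 ± 0.37, edgeR adjusted p = 0.933). Prg2 was at 14130, 16900 and 16920 CPM at stage I and 24830 and 17680 CPM at stage II (0.41 ± 0.31). Prg3, the other major basic protein gene, was at 5317, 6142 and 6246 CPM at stage I and 8306 and 5549 CPM at stage II (0.23 ± 0.29). Ear1, an eosinophil-associated ribonuclease, was at 1951, 2477 and 2323 CPM at stage I and 3999 and 3142 CPM at stage II (0.67 ± 0.34). Prg3 and Epx overlapped between the groups, while both stage II libraries lay above stage I for Ear1 and, narrowly, for Prg2. Reads of the Ear genes, which are close copies, may be split between them. The summed level of the list was 42410 to 49690 CPM at stage I and 45410 and 62390 CPM at stage II. The count was 0 in each leave-one-out fit, with DESeq2 and with limma-voom, and 0 of the 7 had an unadjusted edgeR p under 0.05. With SE of this size, a p that misses the threshold does not show that the levels were equal.

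Primary granules are the stores that early neutrophil progenitors fill with proteases and myeloperoxidase. Of 8 tested genes on the list built around them, 3 (37.5%) were called lower and 0 higher, with a median log2 fold change of -2.37. Not every gene on the list encodes a primary granule protein. Beside Mpo and Ctsg, Ms4a3, a membrane protein of granulocyte-committed progenitors, was at 458, 553 and 613 CPM at stage I and 78.7 and 113 CPM at stage II (log2 fold change -2.50 ± 0.61, edgeR adjusted p = 0.0148). Elane, the neutrophil elastase gene, was at 489.8, 173 and 463 CPM at stage I and 119.8 and 31.8 CPM at stage II (-2.31 ± 1.25). Prtn3, proteinase 3, was at 170.4, 84.2 and 157 CPM at stage I and 35 and 16.4 CPM at stage II (-2.42 ± 1.08). All 3 genes were lower in both stage II libraries than in any of stage I, but Elane and Prtn3 were not called (edgeR adjusted p = 0.274 and 0.179). Nkg7 (-1.13 ± 0.40), Prss57 (-0.56 ± 0.39) and Hp (0.64 ± 0.36) were not called either. Limma-voom and the fit of the 5 libraries alone called Prtn3 (adjusted p = 0.037 and 0.00659) and Nkg7 (adjusted p = 0.0078 and 0.0202) lower. The list summed to 5452 to 7601 CPM at stage I and 1482 and 1726 CPM at stage II. Without stage II library 1 the count was 0 of 8, without library 2 it was 1, and it was 5 of 8 in the fit of the 5 libraries alone. The following calls ended when 1 library was left out, at edgeR adjusted p of 0.0522 to 0.213: Ctsg (without II-1), Ms4a3 (without II-1 or II-2) and Mpo (without II-1, II-2, I-2 or I-3). The call of Mpo also ended in 1 or more of the 7 other fits (adjusted p of 0.0518 to 0.0521).

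Markers of other cell types were summed in each library as a measure of what the gates could hold. The list of basophil and mast cell genes summed to 2887 to 3607 CPM at stage I and 1476 and 2174 CPM at stage II. Of 11 tested members 2 were called lower, the basophil protease gene Mcpt8 and Ms4a2 (-2.07 ± 0.60), while Il4, also on the list, rose. The number of falls was 3 with DESeq2, 5 with limma-voom and 4 with the 5 libraries alone or a replicate block. Mcpt8 was at 221, 218 and 321 CPM at stage I and 56.8 and 52.4 CPM at stage II (-2.21 ± 0.67). Between 4 and 6 of the list's 15 genes were at 0 in each library, and the mast cell protease genes Tpsb2, Tpsab1, Mcpt4 and Cma1 had too few counts to be tested. The neutrophil list summed to 2591 to 3738 CPM at stage I and 4488 and 6563 CPM at stage II, with 2 of 14 members called higher (Retnlg and Ngp, 1.38 ± 0.33) and 0 at 0 counts. Ltf, Camp, S100a8 and S100a9, which mark neutrophil precursors, were not called (log2 fold changes 0.19 to 0.57), and Ly6g, the antigen used for depletion, was at 0.518, 1.04 and 1.23 CPM at stage I and 2.33 and 4.07 CPM at stage II (1.81 ± 0.62, edgeR adjusted p = 0.066). Ly6g was called higher by DESeq2 (adjusted p = 0.0377) and with the replicate block (adjusted p = 0.0296), and the neutrophil list then had 4 and 5 rises. The monocyte list summed to 1456 to 2169 CPM at stage I and 2229 and 2247 CPM at stage II, and 1 of its 16 members was called (4 with the replicate block). That was Csf1r, the macrophage growth factor receptor, at 7.54, 5.31 and 5.85 CPM at stage I and 76.9 and 24.7 CPM at stage II (3.01 ± 0.37). In the lists of T, NK and innate lymphoid cells (3 tested), megakaryocytes (4), dendritic cells (10) and erythroid cells (8) 0 genes were called. Unadjusted edgeR p were under 0.05 for 5 of them, and DESeq2 called 1, limma-voom 3 and the fit of the 5 libraries alone 4. The summed level of the T, NK and innate lymphoid list was 879 to 1236 CPM at stage I and 474 and 524 CPM at stage II, with 10 to 12 of its 15 genes at 0 in each library. This sum thus rested on few genes. The 1 tested member that fell had a log2 fold change of -1.13, the value given above for Nkg7 of the primary granule list. The sum is therefore no measure of lymphoid cells alone. The erythroid list summed to 165 to 216 CPM at stage I and 132 and 137 CPM at stage II, that of megakaryocytes to 789 to 1049 CPM and 899 and 977 CPM. The dendritic list summed to 110 to 202 CPM and 79.6 and 102 CPM. In the B lineage list, 35.2 to 49.5 CPM at stage I and 25.5 and 74.8 CPM at stage II in sum, 1 of 6 genes was called (Cd79a, at most 3.29 CPM). What part such cells had in the results was not tested. Leave-one-out fits ended the calls of Ngp (without II-1), Cd79a (without II-1, I-1 or I-2), Ms4a2 (without II-1, II-2, I-2 or I-3) and Mcpt8 (without any 1 library) (edgeR adjusted p of 0.0649 to 0.75). Among the 7 other fits, 1 or more ended the calls of Mcpt8, Ms4a2 and Cd79a (adjusted p of 0.0723 to 0.249).

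Stem and progenitor genes gave 5 falls and 0 rises among 25 tested (20%), with a median log2 fold change of -0.94. Cd34, the surface marker of progenitors, was at 91.6, 99.7 and 112 CPM at stage I and 24.4 and 34.2 CPM at stage II (log2 fold change -1.78 ± 0.34, edgeR adjusted p = 0.00173). The adhesion receptor gene Adgrl4 was at 41.3, 34.2 and 53.2 CPM at stage I and 7.53 and 11.7 CPM at stage II (-2.16 ± 0.46). Myb, a transcription factor that keeps progenitors immature, was at 622, 434 and 555 CPM at stage I and 194 and 343 CPM at stage II (-0.999 ± 0.32, edgeR adjusted p = 0.0469). Hoxa9 was at 14.9, 12.1 and 24.6 CPM at stage I and 2.19 and 2.83 CPM at stage II (-2.77 ± 0.89, edgeR adjusted p = 0.0484). The groups did not overlap for these 4 genes. Meis1, a partner of Hoxa9, was the fifth, at no more than 7.08 CPM (-3.54 ± 0.99). Kit, Sox4, Muc13, Cdk6, Angpt1 and Hoxa7 had log2 fold changes of -0.92 to -2.89 and were not called, while Gata2 (0.56 ± 0.25), Lmo2 (0.33 ± 0.18) and Spn (-0.01 ± 0.18) lay near or above 0. Of these Kit, Sox4, Muc13, Cdk6 and Hoxa7 were called lower in 1 or more other fits (adjusted p of 0.00356 to 0.047), and Gata2 higher with the replicate block (adjusted p = 0.0345). The 25 genes summed to 1281 to 1521 CPM at stage I and 782 and 1046 CPM at stage II. The count was 0 without stage II library 1, 3 without stage I library 1 or 2, 2 without stage I library 3, 9 with DESeq2 and 10 with limma-voom. Of these calls, those of Cd34 and Adgrl4 (without II-1), Meis1 (without II-1, II-2 or I-3), Myb (without II-1, I-1, I-2 or I-3) and Hoxa9 (without any 1 library) ended at edgeR adjusted p of 0.0533 to 0.418. At least 1 of the 7 other fits also ended the calls of Myb, Hoxa9 and Meis1 (adjusted p of 0.0504 to 0.102).

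Of 36 lineage transcription factors tested, 9 (25%) were called higher and 4 (11.1%) lower. Id1 was at 64.3, 69.5 and 69.3 CPM at stage I and 202 and 195 CPM at stage II (1.55 ± 0.29). Mxd1, which competes with Myc for a shared partner, was at 46.1, 27.8 and 34 CPM at stage I and 129 and 105 CPM at stage II (1.70 ± 0.19). Beside these, Id2 and Spi1, the rises were Ets1 (0.84 ± 0.19), Nfil3 (1.25 ± 0.27), Bhlhe40 (1.19 ± 0.33), Ikzf1 (0.62 ± 0.20) and the retinoic acid receptor gene Rara (1.02 ± 0.28). For Id1 and Mxd1 the groups did not overlap and both stage II libraries were close together. Falls were called for Myb, Myc, Cebpa and Runx3 (-0.89 ± 0.24). Cebpa, a C/EBP factor of early granulocyte commitment, was at 5.4, 5 and 2.45 CPM at stage I and 0.548 and 1.02 CPM at stage II (-2.42 ± 0.61). Myc, the driver of growth and ribosome production, was at 363, 317 and 298.9 CPM at stage I and 132 and 137 CPM at stage II (-1.28 ± 0.38, edgeR adjusted p = 0.0312), well apart from the stage I range. Of the factors under which eosinophils arise, Spi1 (PU.1) was thus called higher and Cebpa lower, while Gata1, Gata2 and Cebpe were not called. Gata1 was at 171, 255 and 227 CPM at stage I and 363 and 266 CPM at stage II (0.53 ± 0.17, edgeR adjusted p = 0.0547). Gata1 was called higher without II-2 or I-2 (edgeR adjusted p = 0.0167 and 0.0405), by limma-voom (adjusted p = 0.0482) and with the replicate block (adjusted p = 0.047). Cebpe was at 436, 477 and 502 CPM at stage I and 516 and 523 CPM at stage II (0.14 ± 0.17), and the log2 fold change of Gata2 was 0.56 ± 0.25. Xbp1, needed for eosinophil secretory capacity, had a log2 fold change of -0.39 ± 0.15 and was not called, though DESeq2 called it lower (adjusted p = 0.0197). Counts were 5 rises and 0 falls without stage II library 1, and leaving out any stage I library gave 2 falls. Leaving out 1 library ended the calls of Nfil3, Cebpa and Runx3 (without II-1), Bhlhe40 (without II-1, I-2 or I-3), Rara (without II-2, I-2 or I-3), Ikzf1 (without II-1, II-2, I-2 or I-3) and Myc (without any 1 library), at edgeR adjusted p of 0.0568 to 0.615. The calls of Nfil3, Bhlhe40, Ikzf1, Rara, Myc, Cebpa and Runx3 also ended in 1 or more of the 7 other fits (adjusted p of 0.0505 to 0.193).

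Ribosome biogenesis genes encode the factors that build ribosomal subunits in the nucleolus. Of 50 ribosome biogenesis genes 20 (40.0%) were called lower and 0 higher, against 3.25% of all genes lower, and 48 of the 50 had a negative log2 fold change (median -0.74). Npm1, the nucleolar chaperone nucleophosmin, was at 225, 289.8 and 260.5 CPM at stage I and 134 and 149 CPM at stage II (log2 fold change -0.87 ± 0.15, edgeR adjusted p = 0.000945). Nolc1, another nucleolar chaperone, was at 142, 138 and 117 CPM at stage I and 63.2 and 67.3 CPM at stage II (-1.02 ± 0.19). Wdr43, of the small subunit processome, was at 228, 198 and 196 CPM at stage I and 113 and 104 CPM at stage II (-0.93 ± 0.19). These 3 genes and Gnl3, the nucleostemin gene (157, 145 and 123 CPM at stage I and 59.8 and 65.4 CPM at stage II, -1.18 ± 0.26), showed no overlap and little spread at stage II. For cytosolic ribosomal proteins, the count was 19 lower and 0 higher of 81 (23.5%), with a median of -0.50. Rpl4 was at 594, 707 and 672 CPM at stage I and 467 and 419 CPM at stage II (-0.57 ± 0.14). Rps4x was at 199, 281 and 249.99 CPM at stage I and 136 and 143 CPM at stage II (-0.80 ± 0.20), and Rpl27a had a log2 fold change of -0.90 ± 0.22. For the mitochondrial ribosome 1 of 78 genes was called, lower, with a median of -0.05. Without stage II library 1 the counts were 4 of 50 and 1 of 81, and without library 2 they were 14 and 13. They were 9 and 3 without stage I library 2 and 13 and 6 without stage I library 3, while DESeq2 called 27 and 38 lower. The following calls ended when 1 library was left out, at edgeR adjusted p of 0.058 to 0.171: Gnl3 and Rpl27a (without II-1), Rpl4 (without II-2) and Rps4x (without II-1 or I-2). Among the 7 other fits, 1 or more ended the call of Rpl4 (adjusted p of 0.127).

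Secretory pathway and unfolded protein response genes showed 15 falls and 0 rises among 50 (30.0%), with a median log2 fold change of -0.53. Hspa5, the main chaperone of the endoplasmic reticulum, was at 4273, 3602 and 3692 CPM at stage I and 2245 and 1987 CPM at stage II (log2 fold change -0.87 ± 0.22). Calr, the calcium-binding chaperone calreticulin, was at 2268, 2950 and 2938 CPM at stage I and 622 and 1501 CPM at stage II (-1.36 ± 0.28). Sec61a1, the protein-conducting channel, was at 413, 437 and 408 CPM at stage I and 173 and 279 CPM at stage II (-0.89 ± 0.17). All were below stage I in both stage II libraries, and Calr and Sec61a1 were lower in library 1 than in library 2. The protein disulphide isomerase genes Pdia4 (-1.03 ± 0.24), Pdia6 (-0.69 ± 0.18) and P4hb (-0.68 ± 0.17) were among the 15, as were subunits of the translocon-associated complex and of the oligosaccharyltransferase. Summed, the 50 genes held 27850 to 33450 CPM at stage I and 18270 and 22230 CPM at stage II. Without stage II library 1 the count was 0, without library 2 it was 21, without stage I library 2 it was 5, and it was 3 in the fit of the 5 libraries alone. Leave-one-out fits ended the calls of Calr, Sec61a1 and Pdia4 (without II-1), Pdia6 and P4hb (without II-1 or I-2) and Hspa5 (without II-1 or II-2) (edgeR adjusted p of 0.0561 to 0.227). At least 1 of the 7 other fits also ended the calls of Hspa5, Pdia4, Pdia6 and P4hb (adjusted p of 0.0527 to 0.146).

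**Figure D3:**
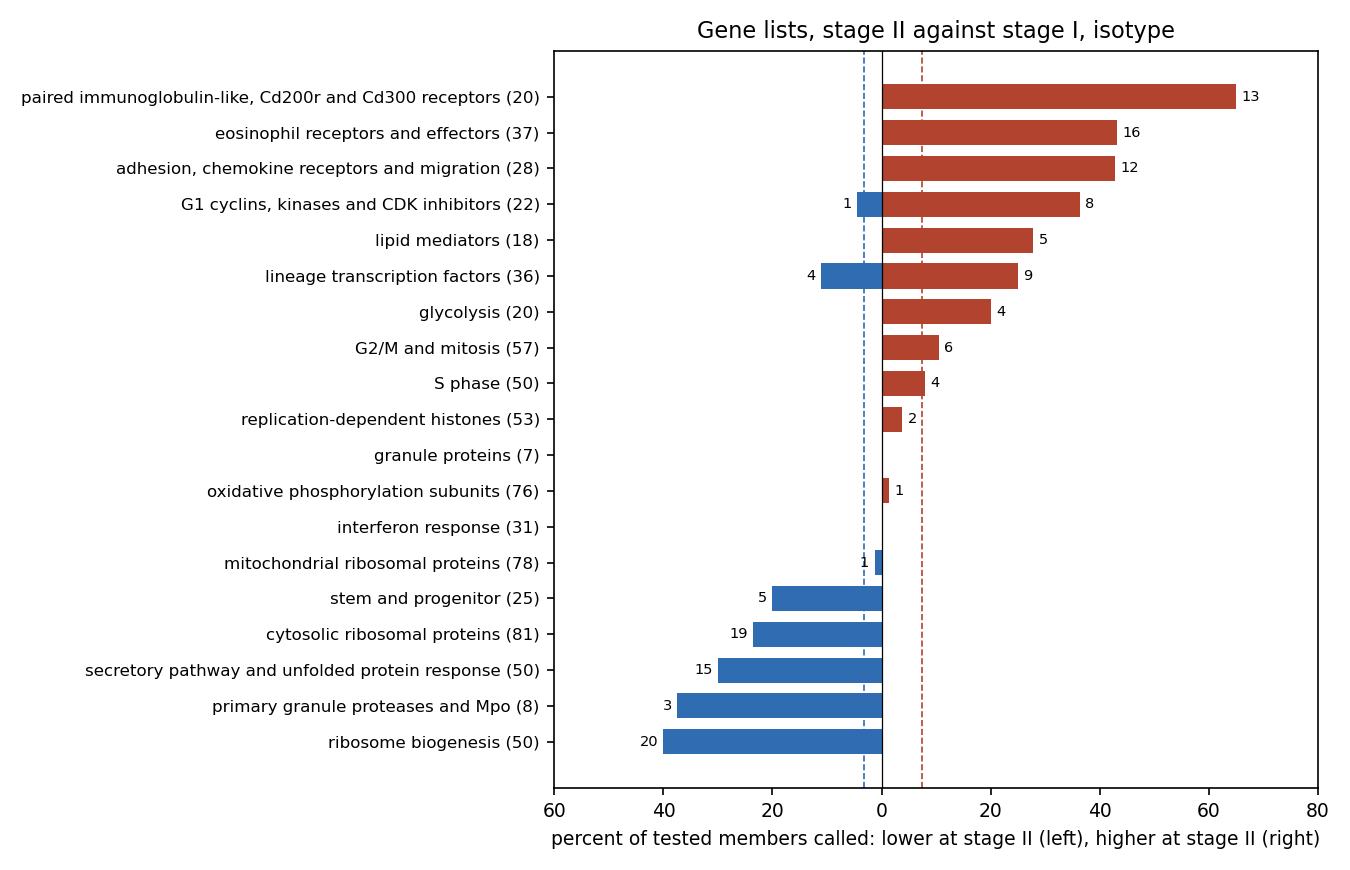
Percent of the tested members of 19 gene lists (number tested in parentheses) that were called higher (red, right) or lower (blue, left) at stage II; the number called stands at each bar and dashed lines give the percent over all genes tested (7.39% higher, 3.25% lower). Receptor lists reach furthest right and ribosome biogenesis furthest left, with the granule protein list empty.

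Cell cycle genes were split into lists by phase. In the list of G1 cyclins, kinases and inhibitors, 8 of 22 (36.4%) were called higher and 1 lower (3 lower with DESeq2 and 2 with limma-voom). The one that fell was Ccnd2, while Ccnd3, which encodes the D-type cyclin of late haematopoietic precursors, was at 244, 222 and 199 CPM at stage I and 565 and 387 CPM at stage II (log2 fold change 1.10 ± 0.21, edgeR adjusted p = 0.00164). Inhibitors of cyclin-dependent kinases were among the rises: Cdkn2d was at 59.5, 76 and 87.4 CPM at stage I and 305.97 and 219 CPM at stage II (1.82 ± 0.17, edgeR adjusted p = 5.5e-07). Cdkn2c was at 18.6, 35.8 and 33.3 CPM at stage I and 68 and 86.5 CPM at stage II (1.41 ± 0.32). Cdkn1a (p21) was at 32.8, 20.1 and 24.6 CPM at stage I and 182 and 59.4 CPM at stage II (2.21 ± 0.58). Cdkn2d and Cdkn2c had no overlap, and Cdkn1a was 3 times higher in library 1 than in library 2. E2f2 (1.88 ± 0.29), Ccne1 (1.11 ± 0.31), Cdk2 (0.57 ± 0.14) and Cdkn2b (2.34 ± 0.63, at most 2.33 CPM) were the other 4. Of 50 S phase genes 4 (8.0%) were called higher and of 57 G2/M genes 6 (10.5%), shares near that of all genes (7.39%), with 0 lower in both lists. The G2/M genes leaned one way, 56 of 57 with a positive log2 fold change (median 0.57). Rrm2, a subunit of the enzyme that makes deoxynucleotides, was at 443, 587 and 577 CPM at stage I and 1150 and 863 CPM at stage II (0.91 ± 0.25). Hmgb2, a chromatin protein of cycling cells, was at 769.7, 987 and 1020 CPM at stage I and 1590 and 1562 CPM at stage II (0.77 ± 0.16). Both genes had stage II above every stage I library. Replication-dependent histone genes, many of them close copies, gave 2 of 53. Leaving out stage I library 1 or stage II library 1 left 1 G2/M gene called (3 in each of the other leave-one-out fits) and 1 or 0 S phase genes. For the G1 list, 3 rises were called without stage II library 1 and 5 without stage I library 2 or 3. Of these calls, those of Ccnd3 and Cdk2 (without II-1), Rrm2 (without II-1 or I-1), Cdkn1a and Cdkn2b (without II-1, I-2 or I-3) and Ccne1 (without II-1, I-1, I-2 or I-3) ended at edgeR adjusted p of 0.0578 to 0.415. The calls of Cdkn1a, Cdk2, Cdkn2b, Rrm2 and Hmgb2 also ended in 1 or more of the 7 other fits (adjusted p of 0.0552 to 0.163).

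Targets of IL-5 and its transcription factor STAT5 were of interest because IL-5 was not blocked in these mice. Of 17 tested, 5 were called higher (29.4%) and 2 lower (11.8%), with a median log2 fold change of 0.28. Under anti-IL5, 1 was called higher and 2 lower, with a median of 0.55. The difference between the arms was called for 0 of the 17 (1 at an unadjusted edgeR p under 0.05). These rises are therefore not shown to depend on IL-5. Cish, a feedback inhibitor of cytokine receptors, was at 10.6, 11.2 and 13.3 CPM at stage I and 27.2 and 35.8 CPM at stage II (log2 fold change 1.43 ± 0.39, edgeR adjusted p = 0.0227). Pim2, a survival kinase, was at 41.8, 35.9 and 24.7 CPM at stage I and 106 and 61.6 CPM at stage II (1.29 ± 0.34). Bcl2l1, which encodes the survival protein Bcl-xL, was at 17.1, 9.16 and 14.9 CPM at stage I and 32.9 and 26.7 CPM at stage II (1.11 ± 0.27). All 3 had both stage II libraries above stage I. The other members called were Id1 and Ccnd3, higher, and Myc and Ccnd2, lower. Of 12 antiapoptotic genes 2 were called higher, Bcl2l1 and Bcl2a1a (1.21 ± 0.36), whose reads may be shared with its near-identical copies, and of 18 proapoptotic genes 0 were, with 6 at an unadjusted edgeR p under 0.05 and 2 called by DESeq2. Of the STAT5 list, 1 rise was called without stage II library 1 and 2 without stage I library 2, with 1 fall in each leave-one-out fit. The antiapoptotic count was 0 without stage II library 1 or stage I library 2 and 1 without stage I library 1, and without stage II library 2 the proapoptotic list had 2 rises and 1 fall. Leaving out 1 library ended the calls of Bcl2l1 (without II-1 or I-2), Bcl2a1a (without II-1, I-1 or I-2), Pim2 (without II-1, I-2 or I-3) and Cish (without II-1, II-2, I-1 or I-2), at edgeR adjusted p of 0.051 to 0.425. Among the 7 other fits, 1 or more ended the calls of Bcl2l1 and Bcl2a1a (adjusted p of 0.0702 to 0.0982).

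Lipid mediator genes gave 5 rises of 18 (27.8%) and 0 falls. Alox5, which starts leukotriene synthesis, was at 359.8, 296.4 and 318 CPM at stage I and 799.9 and 527 CPM at stage II (1.03 ± 0.20). Its activating protein gene Alox5ap was at 367, 346 and 397 CPM at stage I and 1054 and 553 CPM at stage II (1.12 ± 0.21). Pla2g4a, the cytosolic phospholipase that frees arachidonic acid, was at 63.4, 73 and 79.1 CPM at stage I and 148 and 119 CPM at stage II (0.89 ± 0.16). The others were Alox15 and Pla2g7 (2.50 ± 0.65). Stage II was above stage I in each of them. Ltc4s, the leukotriene C4 synthase gene, was at no more than 4.15 CPM and was not called. Glucose transport and glycolysis had 4 rises of 20 (20%): the transporter gene Slc2a3, Gpi1 (0.83 ± 0.17), Slc16a3 (0.85 ± 0.18) and Hk2 (0.70 ± 0.20). The main fit called 0 of the 20 lower, though 3 fell at an unadjusted edgeR p under 0.05. DESeq2, limma-voom, the replicate block and the fit of the 5 libraries alone each called 1 lower. Slc2a3 was at 60.2, 36.6 and 45.2 CPM at stage I and 167 and 145 CPM at stage II (1.72 ± 0.25, edgeR adjusted p = 0.000116). Innate receptors had 4 of 17 (23.5%), with Nod2 at 3.62, 1.98 and 1.79 CPM at stage I and 14.2 and 7.36 CPM at stage II (2.09 ± 0.34). Of 24 genes of the IL-33 receptor and NF-kB, 2 (8.33%) were called higher, Myd88 (0.76 ± 0.21) and Tnf. That share was near the 7.39% of all genes. Tnf was at 11, 7.39 and 11.9 CPM at stage I and 41.2 and 17.5 CPM at stage II (1.53 ± 0.40). Without stage II library 1 these 4 lists gave 2, 2, 2 and 0 rises. Innate receptors gave 2 without stage I library 1 or 2, and the NF-kB list 1 without any one of the stage I libraries and 4 without stage II library 2. The following calls ended when 1 library was left out, at edgeR adjusted p of 0.0589 to 0.84: Alox5ap and Gpi1 (without II-1), Slc16a3 (without II-2), Tnf (without II-1 or I-2), Myd88 (without II-1, I-1 or I-3) and Pla2g7 and Hk2 (without II-1, I-2 or I-3). At least 1 of the 7 other fits also ended the calls of Pla2g7, Gpi1, Slc16a3, Hk2, Tnf and Myd88 (adjusted p of 0.0512 to 0.152).

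The levels at stages III and IV of the isotype arm put this step beside the later ones. Comparisons of later stages with stage II share its libraries, so only means over libraries are given, in the order of stages I, II, III and IV. Id2 had a mean of 34.2, 280.2, 541 and 793 CPM, and Ccr3 of 4.89, 50.9, 443 and 2719 CPM. Alox15 (567, 4259, 7868 and 4500 CPM) and Serpinb2 (1.95, 146, 1182 and 794 CPM) were higher at stage III than at stage IV. Epx, not called over the first step, was at 22440, 21350, 13870 and 389 CPM. Mpo was at 3011, 216, 13.1 and 48.8 CPM, Ccnd2 at 96.6, 11, 5.26 and 17.5 CPM and Myc at 326, 134, 19 and 9.45 CPM. For Mpo and Ccnd2 most of the drop lay between stages I and II. Rrm2 was highest at stage II, at 536, 1007, 266 and 8.46 CPM. The SD of each mean is drawn in the plot by stage.

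**Figure D4:**
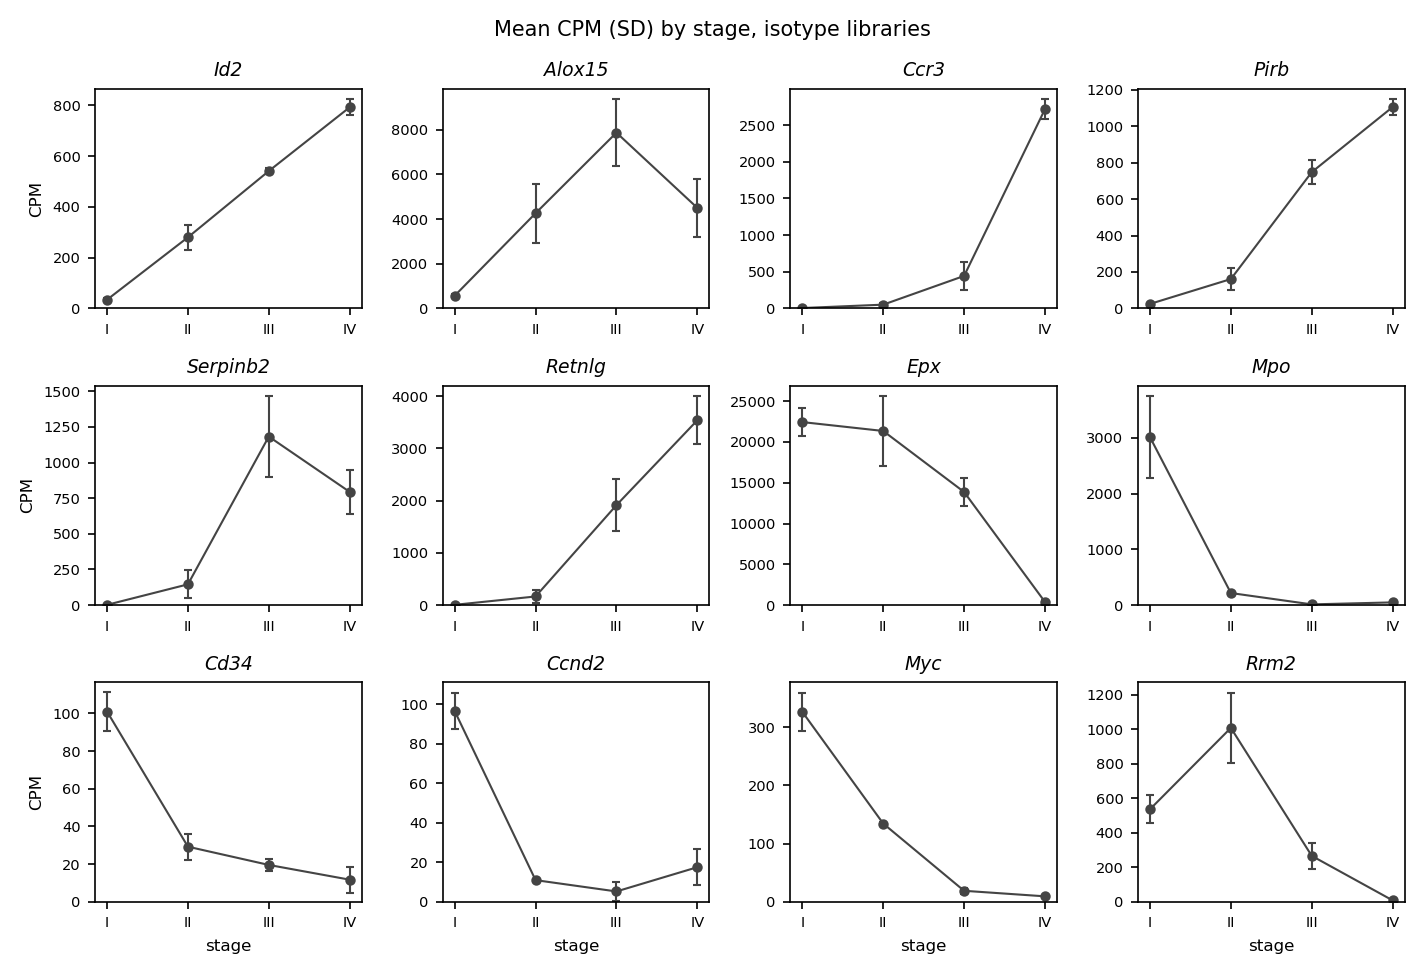
Mean CPM (points) and SD (bars) at stages I to IV of the isotype libraries (3 libraries each, 2 at stage II) for 12 genes; each panel has its own linear axis. Id2, Ccr3, Pirb and Retnlg are highest at stage IV, Epx is lower at stages III and IV, and Mpo, Cd34 and Ccnd2 drop between stages I and II.

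The same step was measured in separate libraries of mice given anti-IL5 antibody (3 of stage I, 2 of stage II). There 900 genes were called higher (7.27%) and 639 lower (5.16%), or 509 in all without stage II library 1 of that arm and 865 without its stage I library 3. The fit of the 5 anti-IL5 libraries alone called 507 higher and 611 lower. Of the 916 rises under isotype, 600 were also called higher under anti-IL5, which is 65.5% of the isotype list and 66.7% of the other. Of the 403 falls, 277 were shared (68.7% and 43.3%), and 0 genes were called in opposite directions. The median log2 fold change of the isotype rises was 0.97 under isotype and 0.80 under anti-IL5, and that of the anti-IL5 rises 0.88 under anti-IL5 and 0.78 under isotype. The isotype falls had medians of -1.005 under isotype and -1.002 under anti-IL5, and the anti-IL5 falls -1.27 under anti-IL5 and -0.90 under isotype. Each list was chosen in 1 of the arms, so these medians are descriptions. In the test of the difference itself, 0 genes (0%) were called by edgeR or limma-voom, with 2.53% of genes at an unadjusted edgeR p under 0.05, while DESeq2 called 3: Adam19, Id2 and Tinagl1. A p that misses the threshold does not show that the steps were alike.

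Adam19 and Id2 had the smallest p for a difference. Adam19 rose by 7.46 ± 0.57 on the log2 scale under isotype and by 2.77 ± 0.34 under anti-IL5. Under anti-IL5 it was at 7.46, 6.76 and 2.14 CPM at stage I and 33.9 and 40 CPM at stage II. The difference was 4.69 ± 0.79 (edgeR adjusted p = 0.0845). It was called without anti-IL5 stage I library 3 (edgeR adjusted p = 0.00158) and by DESeq2 (adjusted p = 0.000336). Id2 rose by 3.03 ± 0.19 under isotype and by 1.74 ± 0.18 under anti-IL5. It was at 289, 264 and 189.7 CPM at stage I and 846 and 809.9 CPM at stage II under anti-IL5, and the steps had a difference of 1.29 ± 0.26 (edgeR adjusted p = 0.456, DESeq2 adjusted p = 0.0179). In both genes the anti-IL5 libraries started from a higher stage I level than the isotype libraries. Tinagl1 was at 2.51, 1.04 and 1.98 CPM at stage I and 8.49 and 2.94 CPM at stage II under isotype. Under anti-IL5 it was at 1.42, 1.43 and 0.584 CPM at stage I and 39.6 and 15.1 CPM at stage II, a difference of -3.005 ± 0.72 (edgeR adjusted p = 1, DESeq2 adjusted p = 0.0267). Cd276, next by p, had 0 counts at isotype stage I and 8 at stage II (at least 5.57-fold higher, against a floor of 3 counts over the group) and was not above 1.46 CPM in any anti-IL5 library of these stages. Ribosome biogenesis genes were called lower in 28 of 50 and cytosolic ribosomal protein genes in 43 of 81 under anti-IL5, and the paired receptors higher in 13 of 20, with 0 of the differences called in any of these lists. The unadjusted edgeR p for a difference was under 0.05 in 6 of the 50, 0 of the 81 and 7 of the 20, against 2.53% of all genes. Myc fell by 2.98 on the log2 scale under anti-IL5 against 1.28 under isotype, a difference of 1.70 ± 0.52 (edgeR adjusted p = 1).

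**Figure D5:**
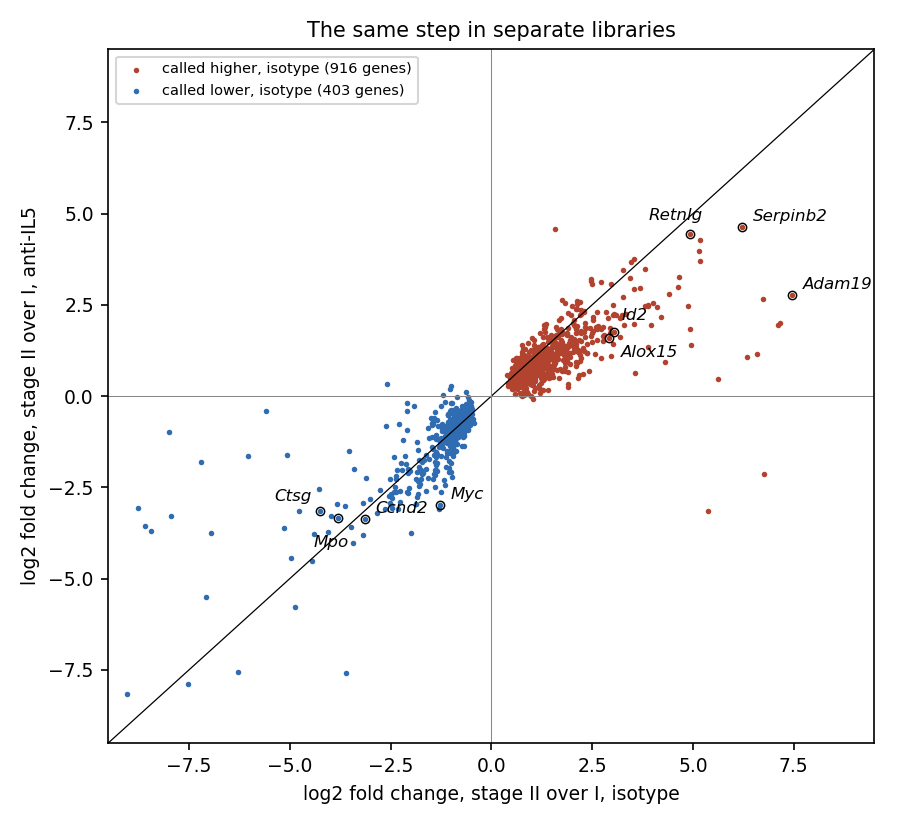
Log2 fold change of stage II over stage I under anti-IL5 (y axis) against isotype (x axis) for the genes called higher (red, 916) or lower (blue, 403) under isotype; the diagonal marks equal steps. Nearly all points keep their sign (912 of 916 and 398 of 403), and Adam19 and Id2 lie below the diagonal.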

How the data were processed

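RNA was amplified with SMART-Seq v4 over 17 cycles and made into Nextera XT libraries, which keep no strand and no molecular barcodes. The bounds given against a floor of 3 counts therefore cover counting error only. The authors deposited whole-number read counts per gene for each library; per the submitters' processing notes, STAR 2.6.1a, the mm10 build and DESeq2 were used, and neither the counter nor its annotation or strandedness is given. Lines for reads without a feature (12.65% to 22.1% of counts) or ambiguous (1.86% to 2.39%) were left out. All 22 libraries in 8 groups entered one edgeR 4.0.16 quasi-likelihood fit in R 4.3.3 after filterByExpr, which kept 12387 of 24982 genes. CPM used TMM-scaled library sizes. A call is an adjusted p (Benjamini-Hochberg) under 0.05. The ± is an approximate SE: the size of the log2 fold change over the square root of its quasi-likelihood F. It takes in the spread between libraries and is rough where a group has almost no counts, as for Adam19. Alternatives were DESeq2 1.42.0, limma 3.58.1 (voom), RLE scaling, no filter, fewer libraries and a replicate block. Each library of stages I and II was also left out in turn, while those of stages III and IV stayed in these fits. The fits were tested on simulated data. Genes named were the 14 largest rises and falls averaging 10 CPM or more and no overlap, up to 4 called members of each list by p, and members needed to account for a list, the last chosen with their values seen. Members and lists were chosen with earlier results of these data known. A gene counted in the lists is not reported here.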

Additional observations from a re-analysis of the deposited data

How the results depend on the processing

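For stage II against stage I under isotype, the 1319 genes called (10.6% of those tested, 69.4% of them higher) became 1237 with RLE scaling (62.7% higher), 1715 with DESeq2 (57.4% higher), 1432 with limma-voom (55.2% higher), 1151 with no filter on low counts, 972 with the 11 isotype libraries and 687 with the 5 libraries alone (51.7% higher), which have fewer samples to estimate the spread. Leaving out 1 library gave 386 to 1677 calls, the lowest without stage II library 1. Under anti-IL5 the 1539 calls ranged from 509 to 1495 when 1 library was left out and fell to 1118 with its 5 libraries alone. For the difference between the arms, the 0 calls became 3 with DESeq2 and 0 to 1 when 1 library was left out. With the replicate number as a block the 3 counts were 1473, 1598 and 0. Equal numbers were not treated as pairs, because the labels do not say what they mark. Deviations of same-numbered libraries correlated at 0.000331 and 0.16 under isotype, with only 2 shared numbers, and at 0.187 and 0.179 under anti-IL5. Isotype I-3 and II-1, of different numbers, correlated at 0.155. The deviations of 2 stage II libraries mirror each other, so these values cannot decide whether libraries were paired. The interferon and monocyte lists stood highest in library 3 at isotype stages I, III and IV, as described below. Of 128 genes called and named here, 42 were called under every alternative and 44 in every leave-one-out fit, and 0 reversed direction under any. The fit of the 5 libraries alone called 0 antiapoptotic (2), 0 lysosome (2), 1 glycolysis (4) and 1 innate receptor gene (4) higher and 4 cytosolic ribosomal protein genes (19) lower, with the counts given before in parentheses. With 2 stage II libraries, and 1 of them when the other is left out, the lone library is assumed to vary like the other groups. Genes with few counts, such as Cd300c and Cd276, are limited by depth: 3 counts in a library correspond to 0.222 to 0.411 CPM.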

Other observations

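Some gene groups had few or no calls over the first step under isotype antibody. Interferon response genes had 0 calls among 31 tested with edgeR (5 at an unadjusted p under 0.05). DESeq2, limma-voom and the fit of the 5 libraries alone each called 1 lower, whereas the fit with a replicate block called 7 higher and 1 lower. Their median log2 fold change was -0.65, with 24 negative and 6 positive. Their summed level was 385, 375 and 974 CPM at stage I and 442 and 420 CPM at stage II, so stage I library 3 stood above the other 4 libraries. Library 3 was also the highest at isotype stages III (824, 1032 and 2866 CPM) and IV (965, 1108 and 3178 CPM). The monocyte list was likewise highest in library 3 at stages I, III and IV (2169, 3973 and 2146 CPM). Stage II has no library 3, so without a block the comparison with stage I also takes in this difference between replicate numbers. Its source was not tested. Oasl2, an antiviral gene, was at 2.88, 4.79 and 40.8 CPM at stage I and 1.37 and 4.3 CPM at stage II. Cholesterol synthesis genes had 0 calls among 25 (2 at an unadjusted p under 0.05, 1 lower by DESeq2 and by limma-voom, 1 in each direction with the block) and a median of 0.10. Oxidative phosphorylation subunits had 1 call among 76 (Cox7a1, 2.02 ± 0.50, at most 9.04 CPM), the proteasome 1 among 38 (Psmd7, -0.49 ± 0.15) and the mitochondrial ribosome 1 among 78 (Mrpl38, -0.79 ± 0.24). Lysosome genes had 2 rises among 24, Tfeb, a regulator of lysosome genes (25, 19.4 and 20.5 CPM at stage I and 57.5 and 34 CPM at stage II, 1.07 ± 0.20), and the protease gene Ctsh (0.60 ± 0.19). Leave-one-out fits ended the calls of Tfeb (without II-1), Cox7a1 (without II-1 or I-1), Ctsh (without II-1, I-1, I-2 or I-3) and Psmd7 and Mrpl38 (without II-1, II-2, I-2 or I-3) (edgeR adjusted p of 0.0533 to 0.738). The calls of Cox7a1, Psmd7, Mrpl38, Tfeb and Ctsh also ended in 1 or more of the 7 other fits (adjusted p of 0.0517 to 0.222).

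Genes of DNA and chromosome metabolism that rose included Slbp, which binds histone messages (290.1, 338 and 326 CPM at stage I and 771 and 455 CPM at stage II, 0.95 ± 0.18), and Tyms, thymidylate synthase (107, 162 and 142 CPM at stage I and 253 and 214 CPM at stage II, 0.77 ± 0.20), of the S phase list. Cdca8 (181, 263 and 241 CPM at stage I and 418 and 407 CPM at stage II, 0.85 ± 0.23) and the kinetochore gene Ndc80 (43.5, 46.1 and 57.7 CPM at stage I and 81.3 and 92.7 CPM at stage II, 0.83 ± 0.23) came from the G2/M list, and the linker histone gene Hist1h1e (81.6, 74.2 and 82.7 CPM at stage I and 160.2 and 154 CPM at stage II, 0.98 ± 0.24) from the histone list. Both stage II libraries were above stage I in these 5 genes. Tyms was also the only call among 18 serine and one-carbon enzymes, of which 15 had a negative log2 fold change. DESeq2 called 3 of the 18 lower, limma-voom 6 and the fit of the 5 libraries alone 2. In that list Phgdh, the first enzyme of serine synthesis, was at 124, 237 and 199.8 CPM at stage I and 42.6 and 77.5 CPM at stage II and was not called (-1.64 ± 0.53, edgeR adjusted p = 0.0552). It was called lower without I-1 (edgeR adjusted p = 0.0456), by limma-voom (adjusted p = 0.00312), with the replicate block (adjusted p = 0.00927) and with the 5 libraries alone (adjusted p = 0.0159). Fits with a replicate block or with limma-voom gave 13 and 12 calls among the 57 G2/M genes and 10 and 9 among the 53 histone genes, against 6 and 2. Of these calls, those of Slbp and Hist1h1e (without II-1), Tyms and Cdca8 (without II-1 or I-1) and Ndc80 (without II-1, II-2, I-1 or I-2) ended at edgeR adjusted p of 0.0751 to 0.17. Among the 7 other fits, 1 or more ended the calls of Slbp, Tyms and Cdca8 (adjusted p of 0.0514 to 0.068).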
